A study of Mus musculus with 22 samples.

Results

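Plasma-activated medium (PAM) was compared with direct cold atmospheric plasma (CAP) in mouse duodenal organoids, both starting at day 1 after replating. The comparison holds 6 of the 22 RNA-seq libraries of the series, 3 per application, and each application was made once in the organoid lines CD1, WT2 and 2, by which the libraries were chosen and paired. CAP is a partly ionized gas rich in reactive oxygen and nitrogen species. In direct CAP, the plasma was applied above the organoid culture itself, at a distance at which the plume did not touch the medium, and the treated medium was replaced by fresh medium 24 h later. For PAM, medium was treated in the absence of organoids and then given to naive organoids from day 1, so that the cells were not present while the plasma was on. The study gives the same dose for both, which it calls moderate. By its design the transcriptome was taken at day 3, after a further time in fresh medium and not at the end of exposure. The question was whether the 2 ways of application give the same transcriptome.

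All 6 libraries came from total RNA of wild type duodenal epithelium of adult mice of the outbred CD1 strain, with 1 mouse per line. The study's methods name Ovation Solo or NEBNext as the library kit, without giving the kit of each library. The part of the kit in the results was not tested. The labels give passage 12 for line CD1, 14 for line WT2 and 4 for line 2, and the study lists another passage for line 2. For the libraries of PAM and of indirect CAP from day 1 the labels give an exposure of 0.5 h and the study's methods 24 h, against 24 h in both sources for direct CAP. If the labels hold, exposure time and way of application cannot be told apart within these 6 libraries. The series also holds direct CAP of 0.5 h in the same lines, and PAM was not tested against it here. Another 4 untreated libraries and the groups given indirect CAP, in which organoids received medium from another treated culture, are used below as context.

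An intestinal organoid is an epithelial culture in which Lgr5-positive stem cells, kept by Wnt and Notch signals, divide in crypt-like buds and give rise to absorptive enterocytes and to secretory Paneth, goblet and enteroendocrine cells. After injury to the intestine, stem cell genes often fall while genes of a fetal-like repair programme rise. During S phase, dividing cells make large amounts of canonical histone mRNA, which ends in a stem-loop in place of a poly(A) tail.

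The deposited unit is CP20M. The study's legends define it per kilobase of transcript. Low values in the 6 libraries compared follow the spacing of whole reads brought to a total of 20 M with 1 factor per library. The unit was therefore read as not divided by gene length, and values are compared between libraries and not between genes. Depth, estimated from the spacing of low values, was 22.1 to 28.4 M reads (M, mega) in these 6 libraries. The errors given cover the spread between 3 lines only. They are limma's moderated SEs, which draw each gene's spread toward that of genes of like level. The 8 general epithelial markers were all measured, with a summed value of 167171 to 191000 after direct CAP and 188415 to 203006 with PAM and none past the test. The labels call the cells stem cells, but all 22 enterocyte and all 11 goblet cell markers also passed the filter on low values, beside 18 of 19 stem cell markers. Markers of other tissues were low or partly at 0. The 8 fibroblast markers summed to 57 to 92 after direct CAP and 50 to 122 with PAM, with Dcn and Lum at 0 in all 6 libraries. The 7 immune markers summed to 304 to 414 and 351 to 420, of which Csf1r alone reached 287, the 5 endothelial markers to 33 to 60 and 51 to 112, with Kdr at 0, and the 6 muscle and glia markers to 36 to 49 and 25 to 57. The share of values on mitochondrial genes was 1.14% to 1.30% after direct CAP and 0.789% to 1.02% with PAM, without overlap, and the part of this shift in the results below was not tested. These are bulk libraries, so that fewer cells of a type and less RNA per cell cannot be told apart.

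Canonical histone genes, the stem cell genes Olfm4, Lgr5 and Smoc2 and the endocrine progenitor factor Neurog3 were lower with PAM than after direct CAP, and the transmembrane mucin Muc3 led the genes that were higher. A gene was called where its adjusted p (limma with the line as a replicate block, Benjamini-Hochberg) was under 0.01 and its level changed by 1 or more on the log2 scale. Of 17072 genes tested, 48 (0.281%) were called lower and 10 (0.0586%) higher with PAM. The 48 lower genes were 29 canonical histone genes, 8 predicted microRNA models inside histone genes and 11 others. Under a wider rule, an adjusted p under 0.05 whatever the fold, 272 genes (1.59%) were lower and 223 (1.31%) higher. The median log2 fold change over all genes was -0.04, and 56.1% of all genes were lower in sign, 25% in each of the 3 lines. All 58 called genes moved the same way in the 3 lines. The PAM libraries lay below all direct libraries for 46 of the 48 lower genes, against 10.5% of all genes. They lay above all direct libraries for 5 of the 10 higher genes, against 5.68% of all genes. The genes were called on these same libraries, so these counts are not separate support.

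These calls rest on the pairing by line and on line WT2. Line took 66.4% of the variance of the 6 libraries and application 18.6%. Without the replicate block 0 genes were called (limma, 1773 at an unadjusted p under 0.05), and 0 were called without line WT2 (3980 at an unadjusted p under 0.05), whereas 68 were called without line CD1 and 324 without line 2. The directions given below hold under each of these settings for every gene named by the rule that could be tested there.

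Stem cell marker genes were among the genes with the largest falls. Olfm4, a secreted glycoprotein of crypt base stem cells, stood at 4979, 5417 and 3058 after direct CAP and at 212, 612 and 1098 with PAM (lines CD1, WT2 and 2, in this order throughout). Each PAM library was below each direct library, and line CD1 fell furthest. The untreated libraries held 20867 to 25431, so that both applications were below them. Direct CAP of 0.5 h, which was not tested against PAM, left Olfm4 at 18005, 18466 and 12679. The log2 fold change of Olfm4 was -3.06 ± 0.41 (moderated SE, n = 3 pairs, adjusted p = 0.00694, limma). An SE from its own 3 lines alone would be larger.

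Lgr5, the R-spondin receptor that defines these stem cells, was at 354, 548 and 128 after direct CAP and 32, 110 and 53 with PAM, a change of -2.33 ± 0.32 (SE, adjusted p = 0.00694, limma). Smoc2, a matricellular protein of the same cells, was at 1924, 2152 and 1107 against 379, 619 and 659, a change of -1.63 ± 0.24 (SE, adjusted p = 0.00868, limma). In both genes line 2 was the lowest line after direct CAP and showed the smallest difference. Of 18 stem cell markers tested, 6 were lower and 0 higher at an adjusted p under 0.05 (1.59% of all genes were lower), and the list had a median of -0.73 on the log2 scale. The other 3 were Cdca7 (-0.85), Aqp4 (-0.85) and Rgmb (-0.75). Slc14a1 was below the filter. Per line the median of the list was -0.86 in CD1, -1.04 in WT2 and -0.24 in line 2, against -0.07, -0.03 and -0.02 over all genes.

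Among 15 Wnt targets and feedback genes, Axin2, a negative regulator that Wnt itself induces, was lower besides Lgr5, with 1644, 2343 and 798 after direct CAP and 536, 811 and 642 with PAM. Its log2 fold change was -1.15 ± 0.22 (SE, adjusted p = 0.0263, limma). The other 13 Wnt genes did not pass, among them Ccnd1 (0.13), Sox9 (0.20) and Cd44 (0.11), and the list had a median of -0.03.

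**Figure D1:**
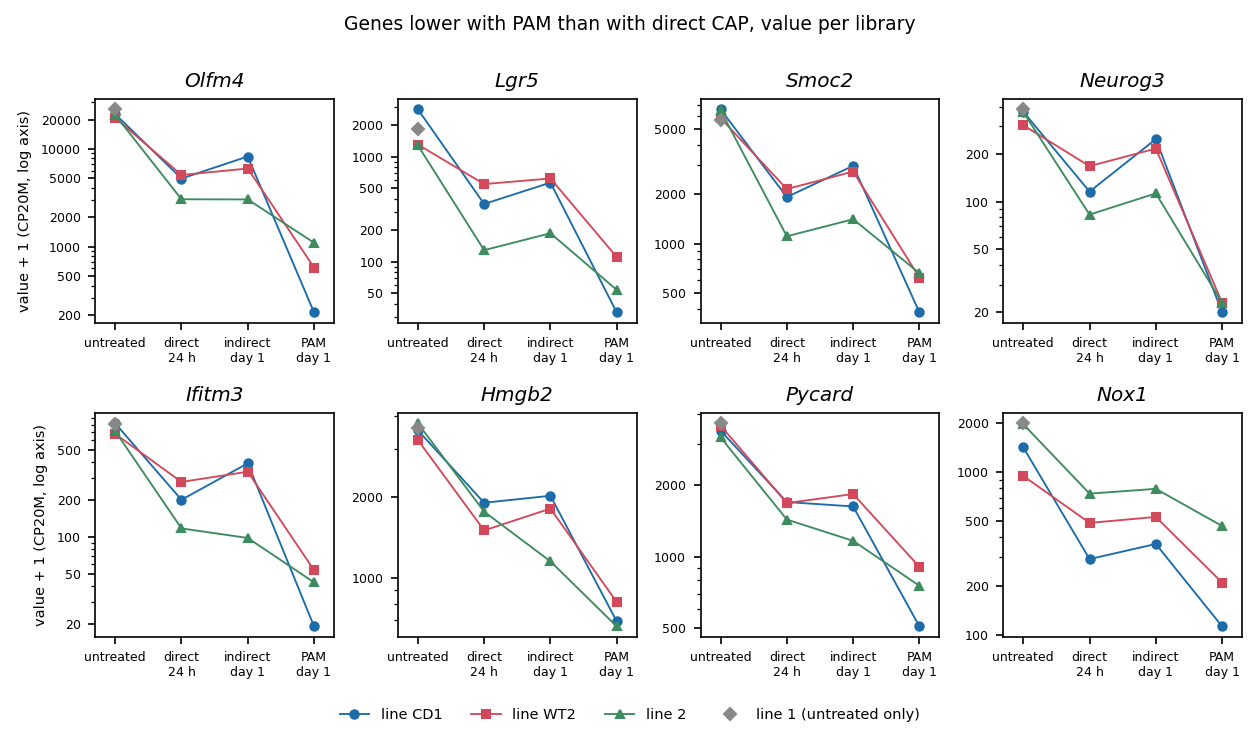
Value per library (CP20M + 1, log axis) of 8 genes called lower with PAM, in 4 groups (untreated, direct CAP 24 h, indirect CAP from day 1, PAM from day 1); lines join the libraries of 1 organoid line. Olfm4 falls from 3058 to 5417 after direct CAP to 212 to 1098 with PAM, and the untreated libraries lie above both for each of the 8 genes.

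Neurog3, the transcription factor that commits progenitors to the enteroendocrine fate, was at 115, 167 and 82 after direct CAP and at 19, 22 and 22 with PAM. The 3 PAM values were close to each other and far below the direct ones, and the log2 fold change was -2.42 ± 0.24 (SE, adjusted p = 0.00439, limma). Hormones and granule proteins did not pass, with Chga at 0.00, Chgb at -0.12 and Gip at -1.02, and Neurog3 was the only one of 13 enteroendocrine genes called at an adjusted p under 0.05. Neurog3 lies inside the longer model 2010107G23Rik on chromosome 10, which had a log2 fold change of -0.35 (adjusted p = 0.153, limma). Genes of the Notch pathway and secretory fate were looked at after these values were seen, without a test of the group. Lfng, a modifier of Notch receptors, was at -1.15, the ligand Dll4 at -0.90 and the progenitor factor Sox4 at -0.86. Each was at an adjusted p under 0.05, at which 1.59% of all genes were lower. In this group 14 of 18 genes did not pass, among them Atoh1 (-0.05), Hes1 (-0.14) and Dll1 (-0.26).

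Paneth cell genes were lower in sign in 9 of 9 members (56.1% of all genes), and 1 was lower at an adjusted p under 0.05 (1.59% of all genes). Mmp7, the protease that activates Paneth defensins, was at 412, 640 and 485 after direct CAP and 79, 414 and 237 with PAM (log2 fold change -1.34 ± 0.27 SE, adjusted p = 0.0318, limma). Itln1 was at 4092, 5485 and 4635 against 628, 3117 and 3270, which did not pass (-1.34, adjusted p = 0.06, limma). The size differed between lines, with a median over the list of -1.996 in CD1, -0.31 in WT2 and -0.52 in line 2. Enterocyte genes had a median of 0.00 over 22 genes, but of -0.53 in CD1, 0.04 in WT2 and 0.31 in line 2, with Krt20, a keratin of mature cells, higher at 0.58. Goblet genes had a median of -0.05 over 11, with Sytl2, a vesicle protein, higher at 0.60. Of 4 tuft cell genes tested, Ptgs1 was higher at 0.60, and the largest change, 0.90, did not pass. Krt20, Sytl2 and Ptgs1 were each the only gene of their list higher at an adjusted p under 0.05 (1.31% of all genes).

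Canonical histone genes formed the largest group among the lower genes. They were counted by symbol after their values were seen, so they carry no test as a group, and their count is to be read beside the 1.59% of all genes that were lower at an adjusted p under 0.05. Of 69 such genes, 65 passed the filter on low values and were tested. All 65 were lower in sign (56.1% of all genes), 63 in each of the 3 lines (25% of all genes), and 57 were lower at an adjusted p under 0.05. The median log2 fold change was -1.04, with -1.14 in CD1, -0.76 in WT2 and -1.18 in line 2. Summed over the 69 genes they made up 0.451% to 0.545% of the library after direct CAP and 0.247% to 0.285% with PAM, without overlap, and 0.602% to 0.671% in untreated organoids. Exact permutation of 3 pairs cannot give a two-sided p below 0.25, so the sum was not tested by itself.

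Linker and core histone genes were both among the lower genes, and differences between the classes were not tested. The median was -0.96 over 5 H1 genes, -1.08 over 17 H2A, -1.08 over 18 H2B, -0.99 over 12 H3 and -0.93 over 13 H4 genes. Hist1h1b, a linker histone, was at 3047, 2633 and 2881 after direct CAP and 1337, 1239 and 1143 with PAM, with a log2 fold change of -1.20 ± 0.11 (SE, adjusted p = 0.00439, limma). Hist1h2ai was at 615, 492 and 544 against 219, 263 and 202 (-1.27 ± 0.15 SE, adjusted p = 0.00456, limma). For the H4 gene Hist1h4j the values were 1604, 1253 and 1368 against 576, 719 and 540 (-1.21 ± 0.14 SE, adjusted p = 0.00456, limma). The groups do not overlap in any of these genes, and line WT2 had the smallest difference. Hist1h2bp was at 316, 240 and 139 against 114, 129 and 37 (-1.41 ± 0.20 SE, adjusted p = 0.00755, limma), with line 2 below the others in both groups.

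**Figure D2:**
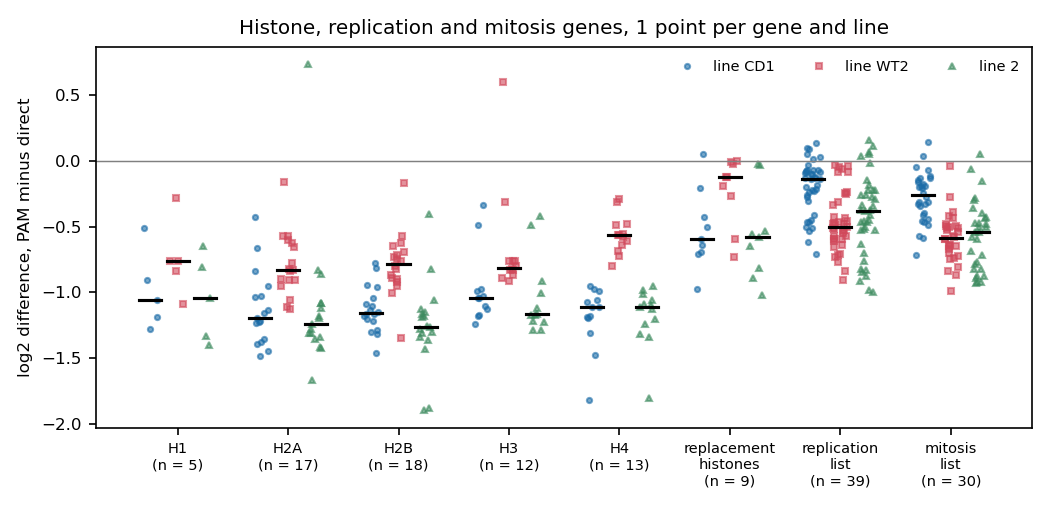
Log2 difference (PAM minus direct CAP, of value + 1) of each canonical histone gene by class, of replication-independent replacement histones and of the genes of the replication and mitosis lists, with 1 point per gene and line and a bar at each line's median; n is the number of genes. The canonical classes have medians of -0.93 to -1.08 in the fit, and the replication list has -0.34.

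Canonical histone genes are near-identical copies, and reads that map to several of them may be lost or misplaced, so the value of a single gene is less certain than that of the family. The 8 predicted microRNA models, such as Gm44297 inside Hist1h2af (chr13:23534114-23534254, GRCm38), share their bases with a histone gene and add no separate evidence. Of the 65 genes 52 lie on chromosome 13, 10 on chromosome 3, 2 on chromosome 11 and 1 on chromosome 6. The median was -1.06 on chromosome 13 and -0.75 on chromosome 3, where 5 of 10 passed. The 8 genes that did not pass include Hist1h1c (-0.48) and Hist1h2bc (-0.60).

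Promoters of canonical histone genes hold known elements, the CCAAT box and, in H2A and H2B genes, the octamer. Since the genes moved together, their start windows (250 bases before to 50 after the start, RefSeq, GRCm38.p6) were searched on both strands for CCAAT and for the octamer ATTTGCAT. RefSeq windows were found for 58 of the 65 genes, 59 windows in all. CCAAT was present in 84.7% of them against 37.4% of all 32851 windows. It was in all windows of the H1, H2A, H2B and H3 genes and in 3 of 12 of the H4 genes. The octamer was in 22.0% against 1.74%, in 6 of 15 H2A and 7 of 17 H2B windows. The windows of the called H2A, H2B and H4 genes with the largest falls are shown 5′ to 3′ in gene direction, with CCAAT or its complement ATTGG in capitals, at chr13:21716162-21716461 (+), chr13:21787238-21787537 (+) and chr13:21734784-21735083 (+).
Hist1h2ai: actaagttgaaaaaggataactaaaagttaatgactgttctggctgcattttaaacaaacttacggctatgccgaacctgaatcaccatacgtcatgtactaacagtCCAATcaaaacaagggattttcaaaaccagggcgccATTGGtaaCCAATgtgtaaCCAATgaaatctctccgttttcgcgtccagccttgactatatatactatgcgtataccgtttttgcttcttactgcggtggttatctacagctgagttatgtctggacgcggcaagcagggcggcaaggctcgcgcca
Hist1h2bp: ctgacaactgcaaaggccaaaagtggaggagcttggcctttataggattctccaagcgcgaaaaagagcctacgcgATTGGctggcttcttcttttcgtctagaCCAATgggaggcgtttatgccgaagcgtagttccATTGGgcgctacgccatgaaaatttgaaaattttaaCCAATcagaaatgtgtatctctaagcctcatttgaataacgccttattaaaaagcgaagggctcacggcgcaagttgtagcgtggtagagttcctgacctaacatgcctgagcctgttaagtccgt
Hist1h4j: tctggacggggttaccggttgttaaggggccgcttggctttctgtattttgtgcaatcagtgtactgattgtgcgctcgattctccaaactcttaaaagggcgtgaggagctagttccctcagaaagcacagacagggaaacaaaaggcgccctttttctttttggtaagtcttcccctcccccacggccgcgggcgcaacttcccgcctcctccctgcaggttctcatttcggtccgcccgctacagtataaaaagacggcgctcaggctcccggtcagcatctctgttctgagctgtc
The first 2 windows hold 4 CCAAT boxes each and the H4 window none. A match is a description of the letters and not of a bound factor.

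Replacement histones, which are made outside S phase too, had a median of -0.41, and this gap to the canonical genes was not tested. Of 9 replacement variants, 2 passed, H2afx (-0.78) and the centromere variant Cenpa (-0.77), and the others ranged from -0.58 for H2afv to -0.03 for H2afy. Hmgb2, a chromatin protein of dividing cells, was called, with 1899, 1499 and 1760 after direct CAP and 688, 812 and 659 with PAM (-1.25 ± 0.14 SE, adjusted p = 0.00456, limma). Other small RNAs mostly had negative medians, with few genes past the test. The median was -0.44 over 190 snoRNA genes, with -0.50 in CD1, -0.13 in WT2 and -0.69 in line 2, and 3 of them were lower at an adjusted p under 0.05, a share near the 1.59% of all genes. It was -0.44 over 31 snRNA genes, of which 1 passed, -0.46 over 13 scaRNA genes, of which 0 passed, and -0.60 over 18 mitochondrial tRNAs, of which 6 were lower. The part of these shifts in the histone difference was not tested.

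DNA replication and mitosis genes were lower in sign throughout (56.1% of all genes), and most did not pass the test. Of 39 replication genes 5 were lower at an adjusted p under 0.05 (1.59% of all genes), with a median of -0.34, or -0.14 in CD1, -0.50 in WT2 and -0.38 in line 2. Dut, which removes dUTP, was at 616, 523 and 657 after direct CAP and 402, 318 and 328 with PAM (-0.78 ± 0.13 SE, adjusted p = 0.016, limma). The others that passed were Tyms (-0.63), Rfc4 (-0.72), Prim1 (-0.59) and Rfc3 (-0.57). Of 30 mitosis genes 10 passed, with a median of -0.48, or -0.26 in CD1, -0.58 in WT2 and -0.54 in line 2. Ccna2, cyclin A, was at 2129, 1867 and 1783 against 1621, 1111 and 1008 (-0.65 ± 0.12 SE, adjusted p = 0.0252, limma). The spindle checkpoint kinase Bub1b was at -0.71 and the mitotic kinase Cdk1 at -0.63. The G1 list had 1 of 21 genes lower, the CDK inhibitor Cdkn2c (-0.68).

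**Figure D3:**
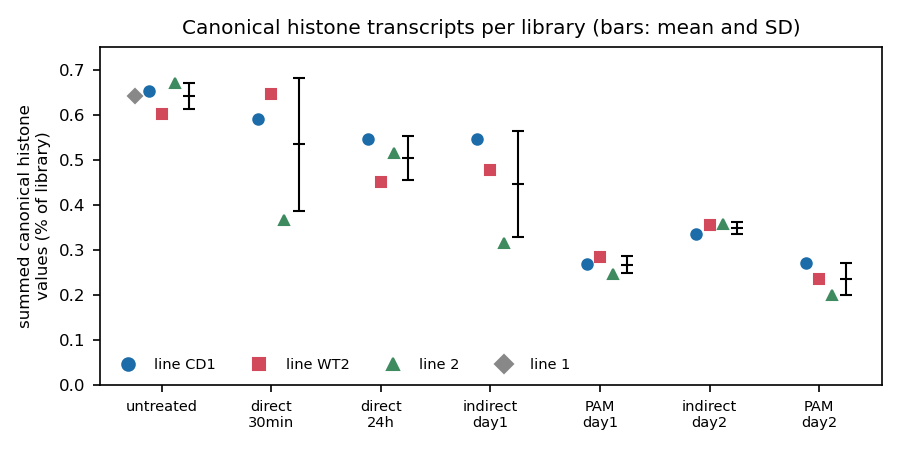
Summed values of the 69 canonical histone genes as a percentage of each library, by group and line, with the mean and SD beside the points; the axis starts at 0. The PAM day 1 libraries (0.247% to 0.285%) lie below the direct 24 h libraries (0.451% to 0.545%), and the PAM day 2 libraries (0.2% to 0.27%) below the indirect day 2 libraries (0.334% to 0.358%).

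Ifitm3 and Pycard, a pair of genes of innate defence, were also lower. Ifitm3, a membrane protein that blocks virus entry and marks crypt cells, was at 198, 276 and 116 after direct CAP and 18, 53 and 42 with PAM (-2.40 ± 0.30 SE, adjusted p = 0.00604, limma), and Ifitm2 fell by 0.71 on the log2 scale. The interferon response list as a whole did not follow, with a median of 0.21. At an adjusted p under 0.05, 2 of 19 genes were lower (1.59% of all genes) and 1 higher (Stat2, 0.62, against 1.31% of all genes). Pycard, the inflammasome adaptor ASC, was at 1701, 1684 and 1435 against 508, 906 and 754 (-1.19 ± 0.16 SE, adjusted p = 0.00743, limma). It overlaps the predicted model Gm45205 (chr7:127993269-127996598, GRCm38), which was called as well, and reads of the pair may not be separable.

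Nox1, the superoxide-producing NADPH oxidase of the gut epithelium, was at 292, 488 and 739 after direct CAP and 112, 209 and 467 with PAM (-1.09 ± 0.16 SE, adjusted p = 0.00868, limma). The groups overlap, since line 2 was the highest in both, but each line fell. Gm26577, an antisense model inside Myb (chr10:21145094-21154374, GRCm38), was called at -1.66, and Myb, a transcription factor of crypt progenitors named after its values were seen because of this overlap, was at 750, 1035 and 414 against 134, 286 and 242 (-1.70, adjusted p = 0.0102, limma).

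Muc3, a transmembrane mucin of the brush border, had the smallest adjusted p of all genes. It was at 1377, 1529 and 1352 after direct CAP and at 4343, 4152 and 3851 with PAM, while untreated organoids held 201 to 353. The lines differed little in either group, and the log2 fold change was 1.54 ± 0.11 (SE, adjusted p = 0.00124, limma). The deposited model lies at chr5:137134922-137149322 (GRCm38). Gm3054 at chr5:137154029-137166070, annotated as a lincRNA, rose from 102, 120 and 111 to 322, 330 and 306 (1.52 ± 0.14 SE, adjusted p = 0.00439, limma). RefSeq places the start window of Muc3 at chr5:137165997-137166296 on the minus strand, which touches the far end of Gm3054, so Muc3 and Gm3054 are not counted as independent. Other transmembrane mucins were looked at after these values were seen. Dpcr1 was higher at 1.01 (adjusted p = 0.025, limma) and Muc4 at 0.83 (adjusted p = 0.023, limma), and Muc13 (0.28) and Muc20 (0.51) did not pass.

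**Figure D4:**
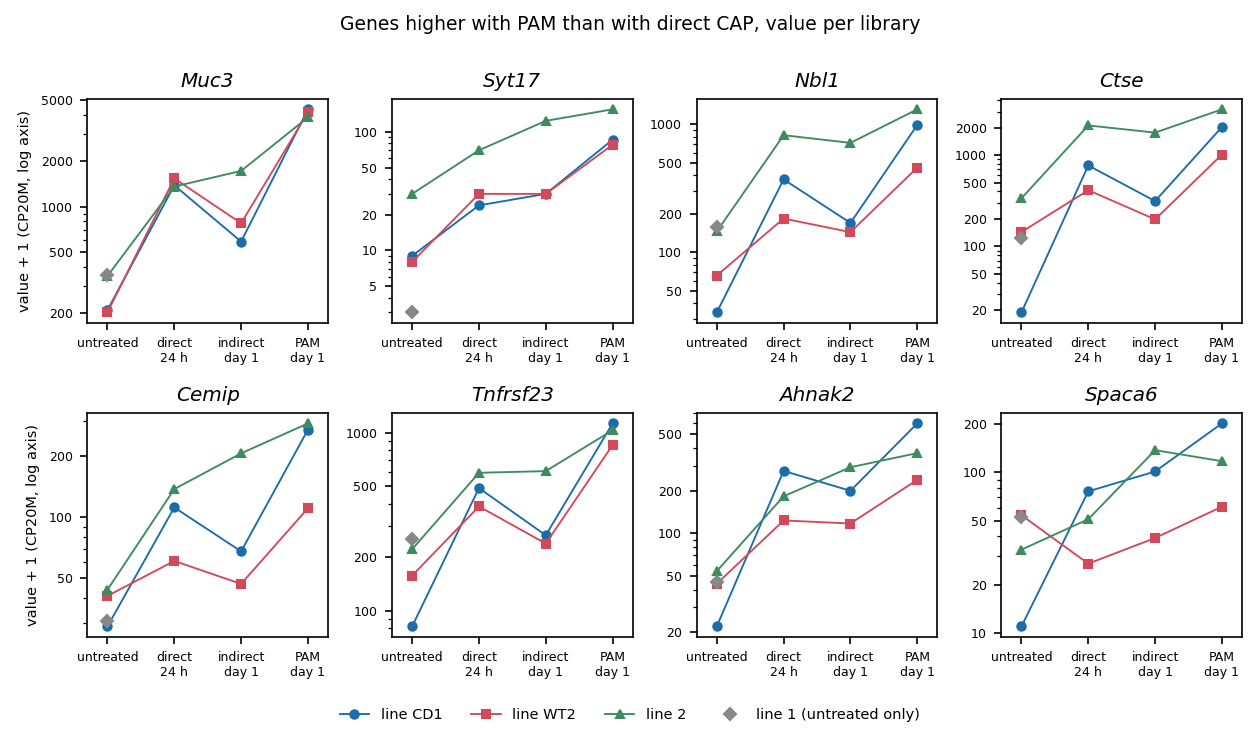
Value per library (CP20M + 1, log axis) of the 8 genes called higher with PAM that have a gene name, in the same 4 groups and lines as the plot of lower genes. Muc3 is at 1352 to 1529 after direct CAP and 3851 to 4343 with PAM, and in Nbl1, Ctse, Cemip, Ahnak2 and Spaca6 the lines keep their order while each is higher with PAM.

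Further genes called higher were Syt17, a synaptotagmin (1.46), Spaca6, a sperm surface protein (1.26), Nbl1, a secreted BMP antagonist (1.14), Ctse, the aspartic protease cathepsin E (1.09), Cemip, a hyaluronan-binding protein (1.07), Tnfrsf23, a decoy receptor for TRAIL (1.05), and Ahnak2, a large scaffold protein (1.03). Nbl1 was at 371, 183 and 823 after direct CAP and 990, 459 and 1311 with PAM, so the groups overlap while every line rose. Tnfrsf23 was at 488, 385 and 595 against 1127, 852 and 1032, without overlap, and shares bases with the antisense model E230032D23Rik, which was called too (1.04). Among genes past an adjusted p of 0.05 with a log2 fold change of at least 1, low-valued genes rose most. These were AL513022.1 (2.02), Tfap2a (1.98) and Drd3 (1.77). Tfap2a, at 3 to 6 after direct CAP and 12 to 37 with PAM, passed the filter on low values through its PAM libraries only. Its place here rests on that filter. AL513022.1 was at 1 to 16 and 8 to 76, on few reads. The villin-like protein Vill followed (1.69), with 39, 21 and 185 after direct CAP and 201, 88 and 302 with PAM.

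Genes of the fetal-like repair list and of cell junctions were higher in a few members. Of 20 fetal-type genes 2 passed (1.31% of all genes were higher at an adjusted p under 0.05), and the median was 0.38, with 0.54 in CD1, 0.74 in WT2 and -0.12 in line 2. Dsg3, a desmosomal cadherin, was at 77, 101 and 135 after direct CAP and 248, 188 and 219 with PAM (1.09 ± 0.20 SE, adjusted p = 0.0239, limma), and the endocytic adaptor Epn3 was at 0.58. Ptgs2 (0.67), Ly6a (0.24), Clu (0.13), Areg (0.32) and Hbegf (0.12) did not pass. Of 19 junction and basement membrane genes 18 were higher in sign (7502 of all 17072 genes) and 3 passed, among them Dsg3 and the laminin chain Lama3 (0.85). The EGF family gene Tgfa was at 1303, 1255 and 1322 against 2121, 1738 and 2009 (0.59 ± 0.11 SE, adjusted p = 0.0252, limma).

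Cytoskeletal linkers such as Ahnak were looked at after their values were seen, without a test of the group. All 16 genes of this group were higher in sign (7502 of all 17072 genes) and 11 were higher at an adjusted p under 0.05 (1.31% of all genes), with a median of 0.70. Ahnak, a giant scaffold protein, had means of 24599 after direct CAP and 44767 with PAM (log2 fold change 0.81, adjusted p = 0.027, limma). Synpo, an actin-bundling protein, was at 1.06, Amotl1, a scaffold of tight junctions and of YAP, at 1.02 and Phldb2 at 0.96. Flna (0.31), Actn4 (0.35) and Tpm1 (0.19) did not pass.

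**Figure D5:**
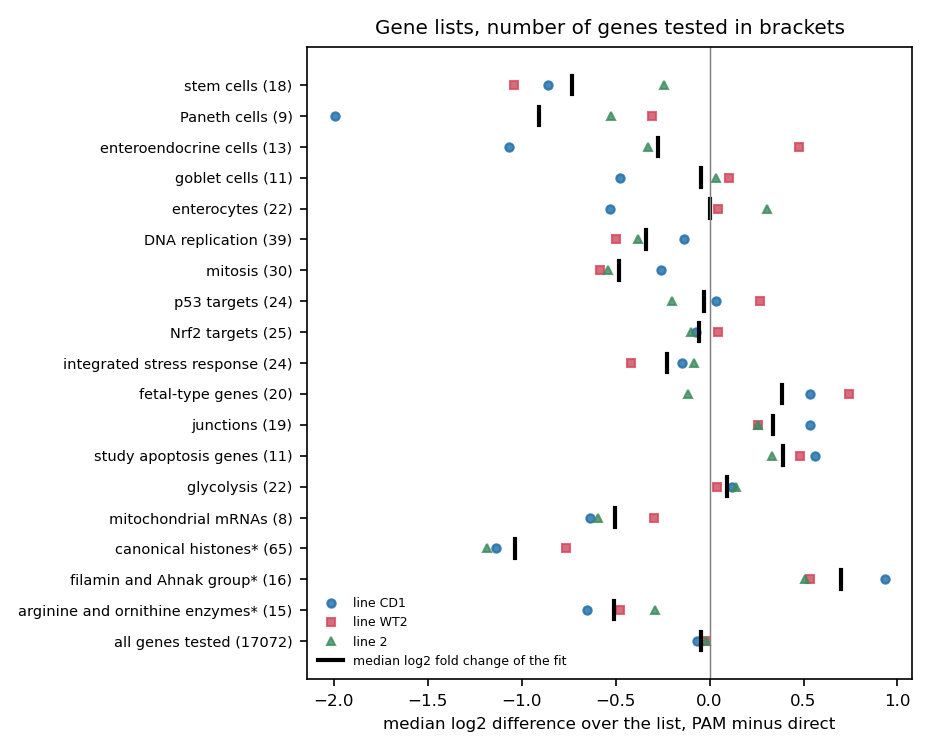
Median log2 difference (PAM minus direct CAP) over each gene list in each of the 3 lines (points) and in the fit (bar), with the number of genes tested in brackets; an asterisk marks groups chosen after their values were seen. Canonical histones lie at -1.04 and stem cell genes at -0.73, while p53 and Nrf2 targets lie at -0.03 and -0.06, near the -0.04 of all genes.

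Few genes of the stress programmes passed the test, and few of all genes did (1.59% lower and 1.31% higher at an adjusted p under 0.05). A count of 0 in a list of 14 to 25 genes is near that share. Of 24 p53 targets none was called at an adjusted p under 0.05 (limma, 3 at an unadjusted p under 0.05, median -0.03), with Cdkn1a, the p21 inhibitor, at 0.10 and Plk3 at 0.43 (adjusted p = 0.073). Of 25 Nrf2 targets none was called (limma, 7 at an unadjusted p under 0.05, median -0.06), with Hmox1, haem oxygenase, at 0.30 and Nqo1 at -0.10. None of 14 heat shock genes and none of 19 genes of the unfolded protein response in the endoplasmic reticulum was called (limma, 4 and 1 at an unadjusted p under 0.05), with Hspa1b at 0.50 and Hspa5 at -0.10. The integrated stress response list had 1 of 24 genes lower at an adjusted p under 0.05 (1.59% of all genes), Cth (-0.73), an enzyme of cysteine synthesis. It had 13 at an unadjusted p under 0.05 (limma, 3810 of all 17072 genes). In this list 18 genes were lower in sign and the median was -0.23, with Ddit3 at -0.07. Among 13 scavengers of reactive oxygen species Prdx4, a peroxiredoxin, was at 326, 231 and 401 after direct CAP and 155, 153 and 193 with PAM (-0.90 ± 0.15 SE, adjusted p = 0.016, limma), and the others were between -0.45 (Prdx3) and 0.29 (Gpx3). A missed threshold does not show that these levels were equal.

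Of 11 apoptosis genes that the study names, 5 were higher at an adjusted p under 0.05 (1.31% of all genes). The study picked them from these same libraries, so their count is not independent evidence of direction. Unc5b, a netrin receptor, was at 1850, 2264 and 2000 against 3550, 3163 and 3670 (0.77 ± 0.12 SE, adjusted p = 0.0146, limma), without overlap. The calpains Capn2 (0.94), Capn5 (0.66) and Capn13 (0.79) and the lipid droplet protein Cidec (0.53) passed as well. Of 19 genes of the Bcl2 and caspase families none was called (limma, 4 at an unadjusted p under 0.05), with Bcl2l1 at 0.37 and Casp6 at -0.41. In the immediate early list Fosb was lower (-1.56), with 161, 35 and 43 against 47, 25 and 7, and Klf4 (0.62) and Fosl2 (0.55) were higher.

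Metabolic genes shifted in a few steps. The glucose transporter Slc2a1 (0.56), hexokinase Hk1 (0.86) and the glycolysis regulator Pfkfb3 (0.86) were higher among 22 glycolysis genes. At an adjusted p under 0.05, 1.31% of all genes were higher and 1.59% lower. Pdk4 (1.40), which restrains pyruvate entry to mitochondria, and Angptl4 (0.73) were higher among 17 PPAR targets. Pdk4 was low, at 11 to 51 after direct CAP and 26 to 141 with PAM, and the groups overlap. Of 22 sterol and fatty acid synthesis genes 1 was higher and 1 lower at an adjusted p under 0.05, with a median of -0.03. All 8 mitochondrial mRNAs tested were lower in sign and mt-Nd6 (-0.77) and mt-Cytb (-0.63) passed, beside the lower mitochondrial share of the PAM libraries given above. The mitochondrial tRNA mt-Tw was called, at 365, 395 and 275 against 167, 227 and 118 (-1.04 ± 0.14 SE, adjusted p = 0.00694, limma).

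Indirect CAP from day 1 also used medium treated outside the culture, but in contact with other organoids. It shares libraries with the comparison above, so its values are only set beside it. Against direct CAP, 6 genes (0.034%) were lower and 2 (0.0113%) higher with indirect CAP at an adjusted p under 0.05. PAM against indirect CAP at day 1 gave 2275 genes lower (12.9%) and 894 higher (5.07%). Olfm4 was at 8373, 6311 and 3046 with indirect CAP, Hmgb2 at 1150 to 2016 and Muc3 at 588 to 1712. All 3 indirect libraries lay above the PAM values of Olfm4 and Hmgb2 and below those of Muc3. Canonical histone genes were lower in sign with indirect than with direct CAP in 59 of 65 genes, with a median of -0.22. They made up 0.315% to 0.545% of the indirect libraries, the lowest in line 2. Of the 48 genes called lower with PAM, 40 were lower in sign with indirect than with direct CAP (38.7% of all genes). Of the 48, 29 are canonical histone genes and 8 are models inside them, so they are not separate pieces of evidence. The exceptions, higher in sign with indirect CAP, were Olfm4 (0.32), Lgr5 (0.46), Smoc2 (0.45), Neurog3 (0.64), Ifitm3 (0.33), Nox1 (0.18), Gm26577 (0.54) and mt-Tw (0.13). At an adjusted p under 0.05, 0 of the 48 passed there. Of the 10 called higher, 3 were higher in sign (61.3% of all genes).

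From day 2, PAM and indirect CAP were given in libraries that the day 1 comparison did not use, though from the same lines. There 0 of 17755 genes were called lower (0%) and 0 higher (0%) at an adjusted p under 0.05 (limma, 3644 at an unadjusted p under 0.05). All 48 genes that were lower with PAM than with direct CAP at day 1 were also lower in sign with PAM than with indirect CAP at day 2, against 66.2% of all genes, with a median of -1.02. Of these, 29 are canonical histone genes and 8 are models inside them, so the 48 are not separate pieces of evidence. All 10 higher genes were higher in sign, against 33.8% of all genes, with a median of 0.46. Lgr5 was at -1.73, Olfm4 at -1.31, Hist1h1b at -1.33 and Muc3 at 0.58 in this second comparison. The canonical histone genes were lower in sign in 63 of 65 genes, with a median of -0.76.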

How the data were processed

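RNA-seq libraries of total RNA were trimmed with Trimmomatic 0.36, aligned with STAR 2.5.3a to GRCm38 and counted with HTSeq 0.9.1, per the labels. Each library's deposited column holds a score, CP20M, defined by the authors per kilobase of transcript. From the values it was read as counts scaled to a total of 20 M and rounded up, with no division by length. The spacing of low values gave an estimate of the reads behind each of the 6 libraries of PAM from day 1 and direct CAP of 24 h. Raw counts were not used, so count tests were not run. All 52636 deposited genes entered, and 52403 were matched to GENCODE vM21.

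The log2 of each value plus a pseudocount of 1 was fitted with limma 3.58.1 in R 4.3.3, with a mean-variance trend and the organoid line as a block, over genes at 10 or more in at least 3 libraries of the fit. A fold change on this scale understates changes of low genes. The p-values and SEs rest on the spread between 3 lines of 1 mouse each. It is moderated by limma toward the trend over all genes (prior degrees of freedom 7.89). Where lines differ widely, as in Olfm4 and Lgr5, an SE from the gene's own lines alone would be larger. Libraries of the same line deviated together (correlations of 0.611 to 0.667, and -0.468 to -0.214 between lines). On simulated data with 16823 genes, 81 of 87 genes changed by 1.5 log2 and 111 of 113 changed by 2 were found with the block in the comparison of PAM with direct CAP, with 2 false calls. These sizes are larger than the medians of the called genes (-1.15 and 1.11), so smaller changes were not covered. Without the block 45 and 76 were found, where the real data gave 0 calls, so the simulated setting differs from these data.

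Genes were named by rule: the 15 lowest and 15 highest past the threshold with the same sign in 3 lines (no predicted models), filled up from an adjusted p under 0.05 with a log2 fold change of at least 1, list members that were called or had the largest statistics, and genes the study names. The libraries, the 33 gene lists and the tests were chosen with earlier results of these data known, and the histone, Notch, mucin and cytoskeleton groups after the values were seen. Other settings tried were a pseudocount of 10, quantile normalization, no block, no filter, all 18 treated libraries in 1 fit, no trend, another threshold, and leaving out each line. Figures were drawn with matplotlib 3.10.9. Results for some genes are not reported here.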

Additional observations from a re-analysis of the deposited data

Results flagged for a closer look

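In the untreated libraries, which serve as context, 2 of the 29 genes named for the size of their change had 1 library far from the other 3. For Hist1h2af the highest library was at 1397 and the others at 1146 to 1181, a gap of 0.861 of the range. For Pdk4 the highest was at 10 and the others at 4, a gap of 1 of the range on a few reads. Chance flags about 1 in 20 such groups, and neither library enters the comparison of PAM with direct CAP.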

How the results depend on the processing

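The count of 58 genes called between PAM and direct CAP was 73 with quantile normalization (47 lower and 26 higher, or 35.6% higher against 17.2%) and 69 with a pseudocount of 10. It was 0 with no filter, 0 without the trend and 0 without the replicate block, with 3840, 3070 and 1773 genes at an unadjusted p under 0.05 (limma). With all treated groups and the block in 1 fit it was 1, with 223 at an adjusted p under 0.05, and the threshold of 0.05 with no minimum fold gave 495. Leaving out 1 line gave between 0 and 324. The 57 canonical histone genes past an adjusted p of 0.05 became 32 without the replicate block, 0 with no filter, 0 without the trend and between 0 and 59 with a line left out (alternatives added after the data were seen), and 51 with all treated groups. Of 79 named genes none changed sign. All 77 that could be tested lost an adjusted p under 0.05 without line WT2, 38 of 77 without line CD1, 1 of 77 without line 2, 70 of 79 without the block and 57 of 79 with all treated groups. With 2 lines only, fewer samples stand behind each test. Of 32 list medians, those of the G1 list (-0.0930 to 0.00331 with a line left out) and the sterol list (-0.0917 to 0.0221) turned positive without line WT2.

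For indirect against direct CAP the count at the stricter threshold was 0 (limma, 3901 at an unadjusted p under 0.05), 3 with quantile normalization, 8 at an adjusted p under 0.05 whatever the fold, and between 1 and 56 with a line left out. For PAM against indirect CAP from day 1 it was 0 (6822 at an unadjusted p under 0.05), 141 with all treated groups, 3169 at an adjusted p under 0.05 whatever the fold, and between 0 and 497 with a line left out. From day 2 it was 0 (3644 at an unadjusted p under 0.05), 72 with all treated groups, and between 0 and 7 with a line left out. The causes of these shifts were not tested. Genes close to the filter rest on few reads, and their counting error is large. Depth was estimated, at 22.1 to 28.4 M, only for the libraries of PAM from day 1 and direct CAP of 24 h.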

Other observations

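A few further groups were looked at after their values were seen, and none carries a test as a group. Of 15 enzymes of arginine, ornithine and related mitochondrial amino acid metabolism, 7 were lower with PAM at an adjusted p under 0.05 (limma, 1.59% of all genes), among them Otc (-0.99), Arg2 (-0.98) and Aldh1b1 (-0.91), with a median of -0.51. The urea cycle enzyme Cps1 had means of 10060 after direct CAP and 3902 with PAM and did not pass (-1.56, adjusted p = 0.080). Of 11 genes of adenosine handling, 5 were higher at an adjusted p under 0.05 (1.31% of all genes). They include adenosine deaminase Ada (1.29), the ectonucleotidase Nt5e (0.73) and the receptor Adora2a (1.46), while Adk was at -0.34. Adora2a was low, at 7 to 15 after direct CAP and 27 to 40 with PAM. Of 16 circadian clock genes, Arntl (0.71) and Npas2 (0.71) were higher and Nr1d2 (-0.71) lower, and Dbp (-0.76) and Per3 (0.11) did not pass. The time of day at which each library was collected is not given in the sources used here.

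The metallothioneins Mt1 and Mt2, which bind zinc, were lower at -1.05 and -1.47 (adjusted p = 0.016 and 0.010, limma). They were the 2 genes that passed among 8 metallothioneins and zinc transporters tested (1.59% of all genes were lower). This group was also looked at after its values were seen. Its median was -0.12, with 5 genes lower and 3 higher in sign. Mt2 had means of 3834 after direct CAP and 1695 with PAM.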
